A study of Drosophila melanogaster with 2 samples.

Results

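The genes described here are 36 muscle genes of Drosophila melanogaster, taken by name from the Ensembl annotation, which holds 13968 protein-coding genes on the chromosome arms. Of them, 35 matched by symbol and 1, Unc-89, by a synonym, since the annotation names it Obsc. They fall into 10 regulators of muscle specification, 5 genes of myoblast fusion and 21 structural genes of the contractile apparatus and its anchors. They were set against the peaks of Poxn (Pox neuro), a factor with a paired DNA-binding domain that directs the fate of chemosensory sense organs. ChIP-seq (chromatin immunoprecipitation and sequencing) was done on whole embryos, collected at 0 to 24 h, from the strain Poxn-GFP, whose insertion makes a Poxn-eGFP fusion protein. There were 2 biological replicates of this 1 group, sonicated to fragments of 200 to 800 bp, and no untagged control was analysed here. The sample descriptions name an antibody against GFP and the antibody field names Poxn. The labels do not say whether the untagged gene was still present, and whole embryos mix muscle with all other tissues, so a site used only in muscle cells is not resolved.

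The embryonic mesoderm is laid down by Twist (twi), which activates the NK homeobox gene tinman (tin). Tinman and its relative Bagpipe (bap) divide the mesoderm into heart, body wall and gut muscle, and Mef2 then switches on the structural genes in all of them. Body wall fibres form when founder cells, marked by the adhesion proteins of kirre and rst, fuse with fusion-competent myoblasts, which carry Sticks and stones (sns) and depend on the zinc finger factor of lmd. The sarcomere built afterwards holds actin, myosin, tropomyosin and troponin, with Z-disc proteins and the giant elastic proteins of sls and bt.

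By at least 1 of 3 rules, Poxn-eGFP peaks were assigned to 9 of the 36 muscle genes (25%), against 11.3% of all protein-coding genes. They were assigned to 4 of the 10 regulators, 2 of the 5 fusion genes and 3 of the 21 structural genes (14.3%). The main set was the thresholded list of the pair of replicates, with 1488 peaks and a median signal of 81.2. In it, 14 peaks were assigned to members, and 27 members had no peak by any rule. A summit lay within 500 bp of a TSS in 4 members (11.1%), against 7.72% of all protein-coding genes. These were tin, mbc, sls and Msp300. A summit lay inside the gene in 4 members (11.1%), against 5.08% of all protein-coding genes, and these were Mef2, kirre, Zasp52 and Msp300. By nearest TSS at any distance, 7 members (19.4%) had a peak, against 8.23% of all protein-coding genes. These were tin, Mef2, bin, lmd, sls, Zasp52 and Msp300.

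The share of regulators exceeded that of structural genes by the nearest-TSS rule, which has no limit of distance. By that rule 4 of 10 regulators (40.0%) had a peak and 3 of 21 structural genes (14.3%), a difference of 25.7 percentage points. Within 500 bp the counts were 1 of 10 regulators and 2 of 21 structural genes, a difference of 0.476 points, and inside the gene they were again 1 of 10 and 2 of 21. The nearest-TSS difference was 15.7 points in the conservative list, 5.71 points in the list of replicate 1 and 20.5 points in that of replicate 2. It was 0.476 points among main-set peaks with a −log10 IDR of at least 3. Among further muscle genes, described below, the order was reversed, with 10.3% of 29 regulators and 17.6% of 17 structural genes. Of the 5 fusion genes, 1 had a peak within 500 bp (mbc), 1 had peaks inside the gene (kirre) and 0 had one by nearest TSS.

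**Figure D1:**
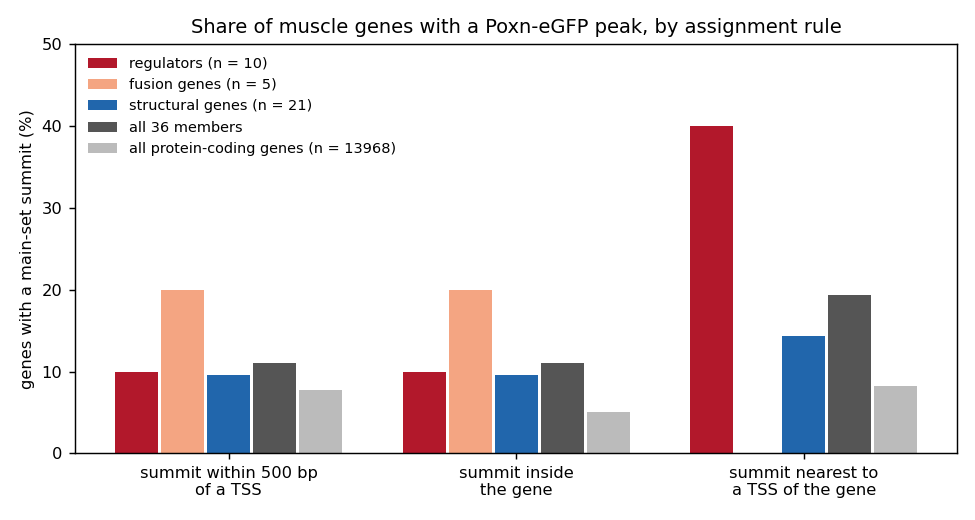
Share of genes with a main-set summit (vertical axis, percent) under each of 3 assignment rules, for regulators, fusion genes, structural genes, all 36 members and all 13968 protein-coding genes. Regulators reach 40.0% by nearest TSS only, where structural genes have 14.3% and all protein-coding genes 8.23%.

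Length and territory differed between these genes and the rest of the genome, and both bear on the rules. The median member was 10.2 kb long, against 2.16 kb for all protein-coding genes, and the medians of regulators and structural genes were 5.52 and 11.4 kb. Per length, member bodies held 9 summits over 1.10 Mb, or 8.17 per Mb, against 9.20 per Mb of all protein-coding gene bodies. Without kirre, whose body holds 5 of the 9, the value was 5.47 per Mb. In the other lists, member bodies held 8.17 per Mb against 8.24 (conservative), 5.44 against 4.91 (replicate 1) and 5.44 against 5.65 (replicate 2). The direction thus turned in replicate 1 with kirre counted. Without kirre, the values were 6.84 (conservative), 4.10 (replicate 1) and 2.73 (replicate 2), each below that of all protein-coding gene bodies. The median member was the nearest gene of 14 ranked candidates, against 4 for all protein-coding genes. Of the candidates nearest to members, 8 of 759 (1.05%) were in the main set, against 1.17% for all protein-coding genes. By class, these were 4 of 191 (2.09%) for regulators, 0 of 184 for fusion genes and 4 of 384 (1.04%) for structural genes. Among further muscle genes, they were 3 of 578 (0.519%) for 29 regulators and 3 of 344 (0.872%) for 17 structural genes. The part of length and territory in the counts was not tested.

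Among the regulators, 3 peaks stood upstream of the genes they were nearest to, with similar heights in the pair list. The tin gene encodes the NK homeodomain factor of heart and visceral mesoderm, and its peak (3R 21378623 to 21378926) had a summit 202 bp before the TSS. Its signal was 89.2, rank 630 of 1488. The strongest candidate under it had a signal of 33.1 in replicate 1 (rank 1234 of 104869 candidates) and 49.0 in replicate 2 (rank 680 of 104909). It passed the threshold only in the list of replicate 2. Each list has its own signal scale, so a signal is read against its rank in its own list. The peak of bin, which encodes the FoxF-type forkhead factor of visceral mesoderm, lay 1356 bp upstream (3L 6989114 to 6989417) and had a signal of 96.6. The replicates gave 46.7 and 44.5 there, and both thresholded lists held it. Within 500 bp of its TSS, the strongest bin candidate had a signal of only 10.5, and the highest inside the gene had 45.5. The peak of lmd, the zinc finger gene of fusion-competent myoblasts, lay 1988 bp upstream (3R 23028549 to 23028852) and had a signal of 99.4. Both thresholded lists held this peak too, with signals of 49.6 in replicate 1 and 46.9 in replicate 2. These 3 summits lay in intergenic sequence.

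Among the structural genes, Msp300 carried the 2 highest peaks of any member. Msp300 encodes a giant nesprin that anchors muscle nuclei to the cytoskeleton. Its gene spans 106 kb of arm 2L and has 5 annotated TSSs. One peak, at 2L 5107975 to 5108278, had its summit 385 bp upstream of an internal TSS and a signal of 187. The other, at 2L 5145602 to 5145905, lay 632 bp upstream of another internal TSS and had a signal of 195. Both summits were in introns of longer transcripts. For the first, replicate 1 gave 89 and replicate 2 gave 97.9, and for the second they gave 93.0 and 101 (ranks 167 and 191). Both peaks were thus among the 202 highest candidates of each replicate and passed each threshold. The peak of sls, which encodes a titin-like protein of the Z-disc and I-band, lay 264 bp upstream of its TSS (3L 2115723 to 2116026) and had a signal of 127. It ranked higher in replicate 1 (76.5, rank 233) than in replicate 2 (44.1, rank 838), and both thresholded lists held it.

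Sequence of 100 bp to either side of the summit is printed for the peaks within 500 bp of the TSSs of tin, sls and Msp300, and for a bin and a kirre peak that hold a searched word. Capitals mark the fixed words, apart from the general E-box, which is left in lower case. All are given on the plus strand of dm6, 5′ to 3′, from the RefSeq sequence. In the first, capitals are the Twist E-box CATATG, with its centre 32.5 bp on the TSS side of the summit. In the second they are the Tinman site TCAAGTG, 83 bp on the TSS side of the summit, and in the third a match to the MEF2 site, 85.5 bp on the TSS side. The sls window held none of the words, and the kirre window has GAGAG, the GAGA factor word, in 2 overlapping copies.
tin, chr3R:21378675-21378875: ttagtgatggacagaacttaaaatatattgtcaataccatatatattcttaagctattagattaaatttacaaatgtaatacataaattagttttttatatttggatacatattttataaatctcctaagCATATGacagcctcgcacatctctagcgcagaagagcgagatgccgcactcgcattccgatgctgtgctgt
bin, chr3L:6989166-6989366: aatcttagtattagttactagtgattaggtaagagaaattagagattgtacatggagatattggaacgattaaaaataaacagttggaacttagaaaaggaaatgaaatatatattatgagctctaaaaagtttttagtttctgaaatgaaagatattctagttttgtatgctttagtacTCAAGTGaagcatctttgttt
Msp300, chr2L:5108027-5108227: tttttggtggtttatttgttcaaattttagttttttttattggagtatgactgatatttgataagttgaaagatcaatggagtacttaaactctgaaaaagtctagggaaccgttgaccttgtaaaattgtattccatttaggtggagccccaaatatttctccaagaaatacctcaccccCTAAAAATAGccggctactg
sls, chr3L:2115775-2115975: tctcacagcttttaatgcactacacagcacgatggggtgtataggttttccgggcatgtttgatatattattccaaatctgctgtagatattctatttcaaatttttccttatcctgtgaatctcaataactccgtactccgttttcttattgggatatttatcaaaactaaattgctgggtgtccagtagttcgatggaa
kirre, chrX:2744165-2744365: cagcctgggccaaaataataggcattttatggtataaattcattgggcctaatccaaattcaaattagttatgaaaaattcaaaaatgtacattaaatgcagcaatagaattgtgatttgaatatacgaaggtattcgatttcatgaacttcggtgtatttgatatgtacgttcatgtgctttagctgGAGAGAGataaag

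These matches are descriptions of letters and not of bound sites. Over the 14 member windows, CATATG occurred in 1 (7.14%), against 7.52% of all 1449 main-set windows on the arms, which include the 14. TCAAGTG was in 1 window (7.14%), against 3.45% of all windows, and the MEF2 site, CTA then 4 of A or T then TAG, in 1 (7.14%), against 0.966%. Each of these counts is 1 window. The general E-box CANNTG, which both CATATG and TCAAGTG contain, was in 8 windows (57.1%), against 57.8% of all. GAGAG was in 2 windows (14.3%), against 21.5%. The promoter word CGATA of the insulator protein BEAF-32, also part of TATCGATA, was in 0 of the 14, against 26.5% of all windows. TATCGATA, the DNA-replication related element, was in 0, against 2.62%, and the Pax2/5/8 core GTCACGC in 0, against 1.17%. The windows of members had a median GC content of 33.6%, from 20.9% at the Msp300 peak of signal 195 to 48.3% at Mef2, against a median of 34.8% over all main-set windows.

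The remaining peaks were inside long genes or shared with a neighbour. Mef2, which encodes the MADS-box factor of muscle differentiation, had a peak in an intron at 2R 9954541 to 9954844, 4165 bp downstream of its first TSS. This was the lowest of the 14, with a signal of 52.2 at rank 1392 of 1488. Replicate 1 gave 16.2 there (rank 21445) and replicate 2 gave 37.5 (rank 1128). The peak was in neither replicate's thresholded list and not in the conservative list of the pair. Zasp52, a Z-disc PDZ and LIM protein gene, had an intronic peak at 2R 15784825 to 15785128, 8915 bp upstream of an internal TSS, with a signal of 70.4. It ranked higher in replicate 1 (49.0, rank 541) than in replicate 2 (23.4, rank 4595) and passed only in replicate 1. Its summit lay 41.7 kb from Poxn itself, the gene from which the fusion was made. Whether this closeness bears on the peak was not tested.

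Every peak inside kirre was nearer to a TSS of another gene. kirre encodes the immunoglobulin adhesion protein of founder cells, and its body of 394 kb on arm X holds many other genes. A pair of peaks near its 5′ end, with signals of 118 and 99.2, had Syx4, a syntaxin gene, as their nearest neighbour. Their summits lay 352 and 189 bp upstream of 2 different Syx4 TSSs, the first of them inside a Syx4 intron. A second pair, with signals of 157 and 87.3, lay in an intron of CG32795. Their summits were 3.83 and 3.17 kb from w, the eye colour gene. The fifth, with a signal of 81.2, lay 144 bp upstream of a TSS of CG3588. In replicate 1 its strongest candidate had a signal of 20.9, and in replicate 2 it had 65.0. The strongest candidate within 500 bp of any kirre TSS had a signal of 23.7. The peak counted for mbc, which encodes a DOCK-type activator of Rac needed for fusion, was shared as well. It spanned 3R 23781439 to 23781742 with a signal of 75.3, 174 bp upstream of the mbc TSS. The summit was in the 5′ UTR of the nucleoporin gene Nup98-96, 30 bp downstream of a TSS of that gene, which is transcribed the other way. Replicate 1 gave 26.1 and replicate 2 gave 47.6, and the peak passed only in replicate 2.

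**Figure D2:**
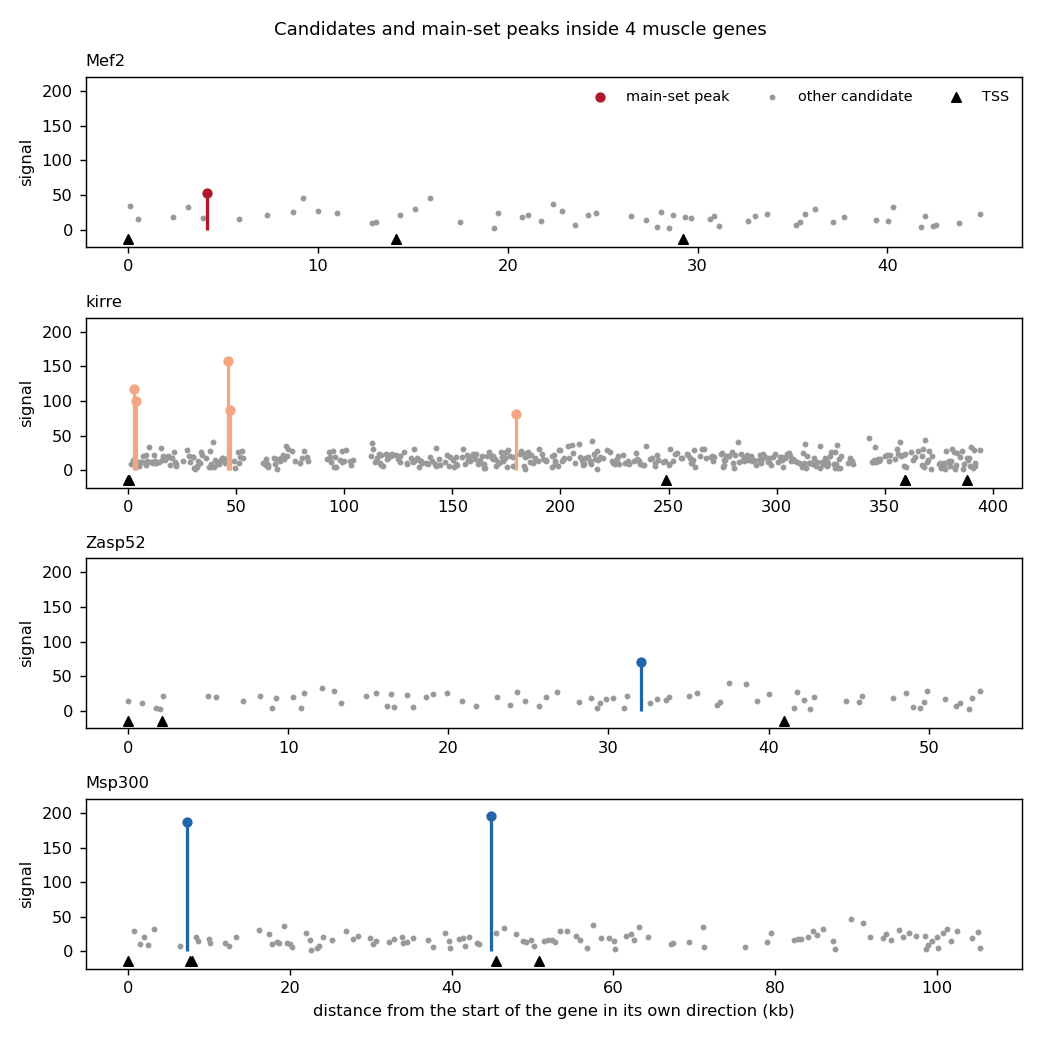
Signal (vertical axis, authors' value in the pair's ranked list) of every candidate summit inside Mef2, kirre, Zasp52 and Msp300 by distance from the start of the gene (horizontal axis, kb), with triangles at annotated TSSs. The main-set peaks of Msp300 stand at 187 and 195 over other candidates of at most 46.2, and that of Mef2 at 52.2 over others of at most 45.7. The other candidates are those that did not pass the threshold.

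Inside these long genes the peaks stood apart from the other candidates to different degrees. The other candidates are those that did not pass the threshold, so that peaks stand above them is partly set by the selection. Msp300 held 120 candidates with its 2 peaks among them, and the others had a median signal of 17.4 and a highest of 46.2. In kirre the 5 peaks stood among 473 candidates, with a highest of 45.7 among the others. In Zasp52 the peak at 70.4 compared with a highest of 40.1 among the others. In Mef2 the peak at 52.2 was close to the next candidate, at 45.7.

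Replicate support varied among the 14 peaks. Both thresholded replicate lists overlapped 7 of them, against 583 (39.2%) of the 1488 main-set peaks. These were the peaks of bin, lmd and sls, both peaks of Msp300 and 2 in kirre. Only the replicate 2 list overlapped 4 (tin, mbc and 2 in kirre), only the replicate 1 list 2 (Zasp52 and 1 in kirre), and neither list 1 (Mef2). The conservative list, with 1353 peaks in all, held 12 of the 14. The shares of all main-set peaks in that list, in only 1 replicate list or in neither were not counted. Of the 4 peaks within 500 bp of a member's TSS, 3 were upstream of the nearest TSS of any gene and that counted for mbc was downstream of it. Of the 821 main-set summits on the arms whose nearest TSS was that close, 83.4% were upstream.

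**Figure D3:**
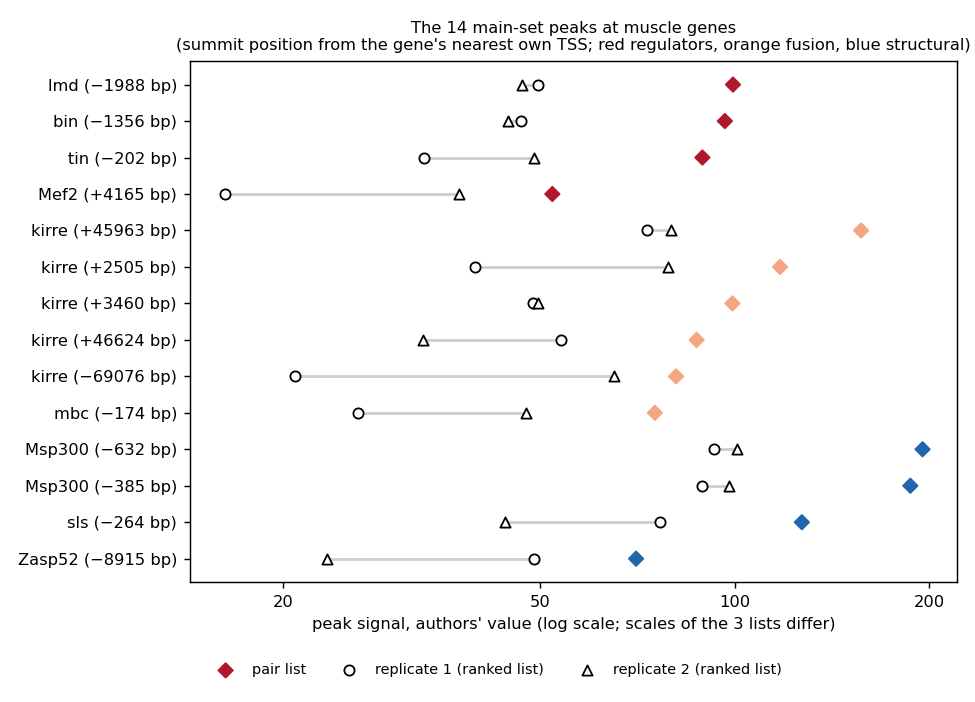
Signal of the 14 main-set peaks at members in the pair list (diamonds) and of the strongest candidate under each in the ranked list of replicate 1 (circles) and replicate 2 (triangles), on a log axis. Labels give the summit position from the nearest TSS of the member. The Msp300 peaks are highest in both replicates, and that of Mef2 is lowest in replicate 1, at 16.2.

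By nearest TSS, bin, lmd, sls and Msp300 had a peak in all 4 thresholded lists. In the conservative list, 4 members had a summit within 500 bp (11.1%, against 7.14% of all protein-coding genes), 5 had one inside the gene (13.9%, against 4.63%) and 6 had one by nearest TSS (16.7%, against 7.64%). It lacked the Mef2 peak and added peaks inside Act57B, an embryonic muscle actin gene, and Actn, the alpha-actinin gene, with signals of 48.7 and 57.6. The Act57B summit, in its coding exon, was nearest to the TSS of a small nucleolar RNA gene, and the Actn summit lay also in the 5′ UTR of usp, a nuclear receptor gene. In the replicate 1 list, 2 members had a summit within 500 bp (5.56%, against 4.37%), 3 inside the gene (8.33%, against 2.89%) and 5 by nearest TSS (13.9%, against 4.63%). In the replicate 2 list the counts were 4 within 500 bp (11.1%, against 6.17%), 2 inside the gene (5.56%, against 3.26%) and 5 by nearest TSS (13.9%, against 5.69%).

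Below the threshold, members were spread over the whole range of promoter signal. In the ranked list of the pair, 34 members had a candidate within 500 bp of a TSS, and the strongest of each was given a percentile among the 10822 protein-coding genes that had one. The median member stood at percentile 56.9, with a range of 6.61 to 98.3. Regulators had a median of 43.7 and structural genes one of 57.3, a difference of −13.6 points. It was −16.6 in replicate 1, −11.4 in replicate 2 and 2.7 with a window of 1000 bp. The median number of annotated TSSs was 2 for members, 1 for regulators and 2 for structural genes, against 1 for all protein-coding genes. A gene with more TSSs has more windows, and the part of this in the percentiles and the 500 bp counts was not tested. The members at the top were Msp300 (98.3), sls (96.7), tin (94.6) and mbc (93.3), all of which had a main-set peak there. Over the 26 members with a candidate in both replicates, the percentiles had a Spearman's rho of 0.686, against 0.502 over all 7295 such genes. This is a description, and per the deposited notes the lists of both replicates also derive from a shared further file.

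Of the 6 regulators with no main-set peak, bap had the highest signal within 500 bp of a TSS. The NK homeobox gene bap had a strongest candidate of signal 43.5 (percentile 84.7), with 13.5 in replicate 1 and 28.1 in replicate 2. The FGF receptor gene htl had 22.9 (percentile 45.0) and Him, which encodes an inhibitor of Mef2 activity, had 22.2 (percentile 42.4). The MyoD homologue nau had 15.8 (percentile 20.8). For how, which encodes an RNA-binding protein of muscle and tendon cells, the value was 10.2 (percentile 7.38), and it was low in both replicates, at 2.65 and 5.38. The remaining one, twi, had 17.3 (percentile 25.8) and no candidate in replicate 1. Away from their TSSs, stronger candidates lay inside twi (49.3), nau (47.0), how (42.4) and, by a smaller margin, htl. Those named in twi and nau were nearer to a TSS of another gene. The highest candidate nearest to a TSS of the gene itself had a signal of 28.5 for twi and 33.9 for nau. For how, it was the candidate of 42.4 inside the gene.

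The structural genes with no main-set peak ranged widely in signal within 500 bp of a TSS. Highest among them was Mlc2, the regulatory myosin light chain gene, with 41.0 (percentile 82.9), 21.6 in replicate 1 and 24.5 in replicate 2. The tropomyosin gene Tm1 had 37.6 (percentile 79.8) in the pair list but 6.13 in the conservative ranked list, and no candidate in replicate 2. The muscle myosin heavy chain gene Mhc had 36.3 (percentile 78.5), with 13.7 in replicate 1 and 22.3 in replicate 2. At the low end, wupA, the troponin I gene, had 11.7 (percentile 10.5) and the actin gene Act79B had 9.60 (percentile 6.61). For wupA, replicate 1 had no candidate there and replicate 2 gave 12.9, at percentile 41.0 of its list. For Act79B, neither replicate had a candidate there. The actin genes are near-identical in coding sequence, so their signals may be uncertain where reads fall there. For bt, the projectin gene on chromosome 4, and fln, which encodes the thick filament protein flightin, the pair's ranked list held no candidate within 500 bp. The 11 other structural genes without a main-set peak had percentiles between 21.2 and 75.8.

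The fusion genes without a main-set peak lay across the middle and bottom of the range. The sns gene had a strongest candidate of 30.6 (percentile 67.8), with 12.7 in replicate 1 and 19.0 in replicate 2. For blow, which encodes a cytoplasmic protein of fusion-competent myoblasts, it was 26.4 (percentile 56.7). For rst, which like kirre encodes an adhesion protein of founder cells, it was 12.7 (percentile 12.5). Neither replicate had a candidate within 500 bp of the rst TSS.

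**Figure D4:**
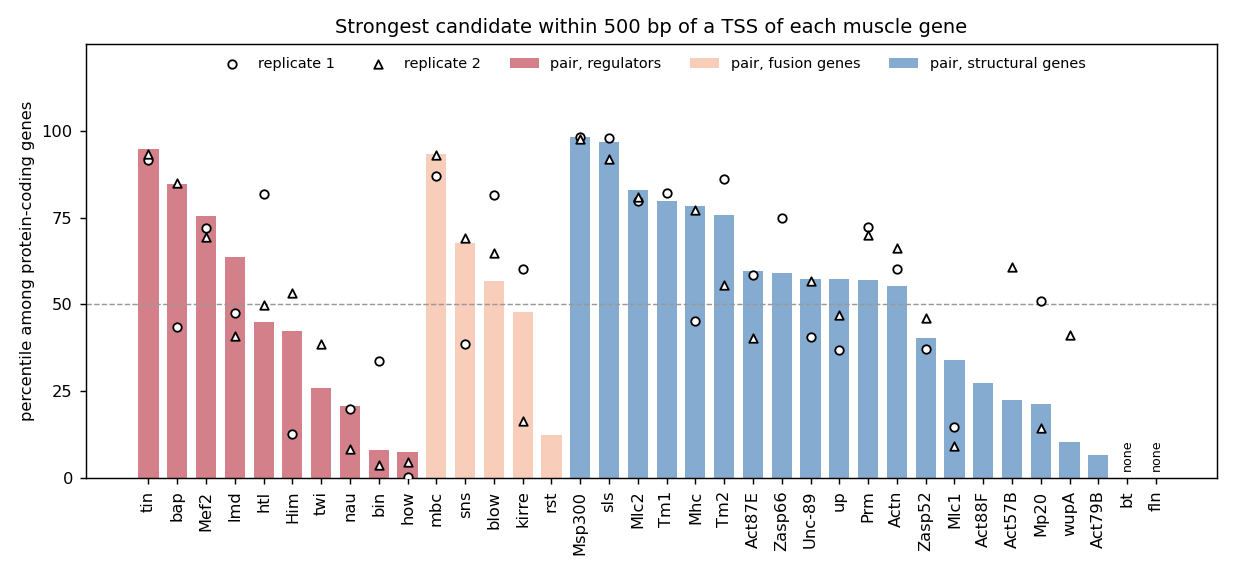
Percentile among protein-coding genes (vertical axis) of the strongest candidate within 500 bp of a TSS for each of the 36 members, as bars for the pair and as circles and triangles for replicates 1 and 2. Members run from tin at 94.6 to how at 7.38 among regulators and from Msp300 at 98.3 to Act79B at 6.61 among structural genes, and bt and fln have no candidate.

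A further list held 69 more muscle genes, with a median length of 10.8 kb, against 2.16 kb for all protein-coding genes. Within 500 bp of a TSS, 5 had a summit (7.25%, against 7.72% of all protein-coding genes). Inside the gene, 12 had one (17.4%, against 5.08%), and by nearest TSS 14 (20.3%, against 8.23%). Of the candidates nearest to the 69, 1.43% were in the main set, against 1.17%. By class, this share was 4.33% for attachment genes, 1.19% for fusion genes, 0.872% for structural genes and 0.519% for regulators. The 15 genes of muscle attachment, described under other observations, gave 4 of the 5 genes above, 6 of the 12 and 7 of the 14. Among the 29 further regulators, 3 had a peak by nearest TSS (10.3%), set beside 40.0% of the 10 regulators above and 8.23% of all protein-coding genes. The highest were at org-1, a T-box gene of muscle founder cells (signal 160, 371 bp upstream, 79.2 in replicate 1 and 78.9 in replicate 2), and zfh1, a zinc finger homeobox gene (142, 1479 bp upstream of an internal TSS). The order of the further regulators (10.3%) and 17 further structural genes was the reverse of that among members. Of these 17 structural genes, 3 had a peak by nearest TSS (17.6%, against the same 8.23%). The highest were at jp, the junctophilin gene (signal 118, 728 bp upstream), and at tmod, the tropomodulin gene that caps thin filaments (115, in an intron). Of 8 further fusion genes, 1 had one, rols, with a signal of 65.3.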

How the data were processed

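Chromatin immunoprecipitation and sequencing (ChIP-seq) peak lists on dm6 were used as deposited. Signal is the authors' enrichment value for each peak, and the deposited files do not state how it was normalised. The authors' score in the deposited files runs from 0 to 1000 and follows the irreproducible discovery rate (IDR). The −log10 of the global IDR stands in the deposited ranked lists, and per the deposited notes the lists derive from filtered alignments plus another file common to the replicates. The aligner, peak caller, IDR threshold and depth per library: not given in the sources used here.

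A summit is start plus offset. Transcription start sites (TSSs) and gene bodies came from Ensembl BDGP6, without transposons, and sequence from RefSeq of the same assembly, in which all 36 members had the same coordinates. Words were searched on both strands within 100 bp of summits. These are printed in place of the 61 bp planned, so that the words show, a choice made after seeing them. Members, classes and gene lists were chosen with earlier results of these data known. Lists of each replicate alone, the conservative list, stricter peaks, other TSS windows and other assignments were tried, of which 3 settings were added after seeing the data. Genes are named if they carry a summit, have no candidate near a TSS, or rank among the 3 highest or 2 lowest of their class there, with up to 8 further muscle genes by signal. Outside this rule, twi, Act57B, Actn and rols were named after their values were seen. With 1 group, no test was made. The assignment was tested on simulated summits and passed 3 of 3 checks. Scripts used Python 3.11.15, pandas 2.3.3 and numpy 2.4.6.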

Additional observations from a re-analysis of the deposited data

How the results depend on the processing

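Leaving out 1 replicate gave 2 to 4 members with a summit within 500 bp, 2 to 3 inside the gene, 5 by nearest TSS and 5.44 summits per Mb of member body, where all protein-coding bodies held 4.91 (replicate 1 list) and 5.65 (replicate 2 list). The nearest-TSS difference of regulators and structural genes was then 5.71 to 20.5 points. With peaks of at least median signal, 2 members had a summit inside the gene, at 6.35 per Mb. With a −log10 IDR of at least 3, counts were 2 within 500 bp, 2 inside the gene and 3 by nearest TSS, at 4.54 per Mb, and the difference was 0.476 points, as it was within 500 bp or inside the gene. A TSS window of 250 bp left 2 members, and a difference in median percentile of −0.797. At 1000 bp that difference turned to 2.7 and the median percentile was 52.0; with genes lacking a candidate ranked last it was 65.9. Leaving out kirre, a setting added after seeing the data, gave 5.47 per Mb. The smaller peak sets hold fewer peaks by construction, and for the other changes the cause was not tested. For peaks of at least median signal, the stricter IDR and the 250 bp window, all protein-coding genes were not counted. Whether members fell more or less than the genome there is thus not shown. Without depth, whether a member lacks a peak for want of reads is unknown.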

Other observations

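Several genes of muscle attachment carried peaks. The further list held 15 such genes, among them those of integrin adhesion. Of the 15, 7 (46.7%) had a main-set peak by nearest TSS, against 8.23% of all protein-coding genes. Within 500 bp of a TSS, 4 of the 15 (26.7%) had one, against 7.72%. These genes had a median length of 16.2 kb. Of the 254 ranked candidates nearest to them, 11 (4.33%) were in the main set, against 1.17% for all protein-coding genes. Integrin adhesion genes act in many tissues besides muscle, and no test of the list was made. It was chosen with earlier results of these data known, and it was not counted in the conservative or replicate lists.

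The highest peak was at stck, which encodes the PINCH adaptor of integrin complexes, with a signal of 237 at 1258 bp upstream (104 in replicate 1 and 132 in replicate 2). Pax, the paxillin gene, had a peak of signal 195 within 500 bp of one of its TSSs, whose summit was nearer, at 241 bp, to a TSS of Alp12 and CG13085. By nearest TSS it had another, of signal 74.6. The tensin gene by had 3 peaks, the highest with a signal of 127 at 268 bp upstream, where replicate 1 gave 52.1 and replicate 2 gave 70.0. The talin gene rhea had an intronic peak of signal 94.3, with 48.5 in replicate 1 and 49.4 in replicate 2. The other 3, mew, CAP and Vinc, were named after their values were seen. Their peaks had signals from 61.1 to 86.3. At Vinc the signal was 66.3, with 18.7 in replicate 1 and 48.7 in replicate 2.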
